A study of Mus musculus with 5 samples.

Results

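The miR-15/16 family is a group of microRNAs (miRNAs, small RNAs that guide the silencing of messenger RNAs) made from several short genomic clusters. It is described here in mouse germ cells, eggs and embryos by 7 mature entries, which were chosen by name: mmu-miR-15a-5p, mmu-miR-15b-5p, mmu-miR-16-5p, mmu-miR-195a-5p, mmu-miR-322-5p, mmu-miR-322-3p and mmu-miR-503-5p. They are 7 of the 1316 miRNA entries in the small RNA tables. Each of 5 cell types was sequenced as 1 library, so no value has a replicate check, no test was possible, and intervals cover counting error only, with PCR copies not independent molecules. Primordial germ cells came from gonads of 13.5 dpc (days after conception) CD-1 male fetuses and were collected with anti-CD15 magnetic beads. Spermatogonia came from 8.5 dpn (days after birth) CD-1 testes, as cells left floating after somatic cells had attached to the dish. Spermatozoa came from the cauda epididymis and vas deferens of mature CD-1 males, through a Percoll gradient and a hypo-osmotic shock. Metaphase II oocytes, a pool of 15210 cells, came from superovulated C57BL/6 females aged 4 to 5 weeks. Zygotes were a pool of 15416 cells taken 15 to 18 hours after fertilisation. They came from a cross of C57BL/6 females, also aged 4 to 5 weeks, to DBA/6J males. Cell type, strain and preparation changed together between the male and the egg-stage libraries and cannot be told apart.

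A miRNA finds its targets mainly through its seed, the bases 2 to 8 from the 5′ end. miRNAs that share a seed share many targets, and the miR-15/16 family is best known for restraining the cell cycle and cell survival through targets such as the D and E cyclins, Chek1 and Bcl2. miR-322 and miR-503 come from an X-linked cluster whose products also act on cell cycle genes such as Cdc25a. A precursor hairpin gives a 5p and a 3p arm, of which one usually dominates.

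The mature sequences show which entries share the full seed of miR-16-5p. They were taken from RefSeq (build GRCm38.p6, the assembly also called mm10), where all 7 entries matched by name. Capitals mark the seed.
mmu-miR-15a-5p: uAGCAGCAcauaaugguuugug
mmu-miR-15b-5p: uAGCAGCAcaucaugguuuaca
mmu-miR-16-5p: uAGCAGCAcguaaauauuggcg
mmu-miR-195a-5p: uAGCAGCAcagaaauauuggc
mmu-miR-322-5p: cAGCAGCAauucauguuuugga
mmu-miR-503-5p: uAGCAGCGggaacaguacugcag
mmu-miR-322-3p: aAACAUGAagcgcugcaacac
mmu-miR-16-1-3p: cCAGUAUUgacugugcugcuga
mmu-miR-16-2-3p: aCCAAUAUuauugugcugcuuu
The first 5 lines hold the same seed, AGCAGCA. miR-503-5p differs from it in the last seed base and miR-322-3p, the opposite arm of miR-322, has an unrelated seed. The last lines are the 3p arms of the miR-16 hairpins, which are not members but are shown because their sequences differ, so that they tell apart the pair of loci that make an identical miR-16-5p. miR-195a-5p matches miR-16-5p at 19 of 21 positions when both are read from the 5′ end. Both entries have fractional reads in spermatozoa, oocytes and zygotes, and how reads that match several entries were divided is not given in the sources used here.

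On the GENCODE vM21 annotation of the same assembly, the 7 entries come from 4 clusters. The Mir15b hairpin (chr3:69009772-69009835, plus strand) lies beside Mir16-2 (chr3:69009902-69009996) in an intron of Smc4, a condensin gene, and the pair spans 225 bp. Mir15a (chr14:61632027-61632110, minus strand) lies in an intron of the non-coding gene Dleu2, and Mir16-1 (chr14:61631880-61631972) overlaps an annotated exon of the same gene, with a span of 231 bp. Mir195a (chr11:70235042-70235135, plus strand) follows Mir497 (chr11:70234717-70234800), with no host gene annotated on their strand. Mir322 (chrX:53054255-53054349) and Mir503 (chrX:53053984-53054054) lie on the minus strand within 366 bp, followed by Mir351, Mir542, Mir450-2, Mir450-1 and Mir450b over 6353 bp.

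The libraries held 12004614 miRNA reads in primordial germ cells, 10657432 in spermatogonia, then 1216358 in spermatozoa, 2010462 in oocytes and 2327081 from zygotes. Levels are reads for every 1000000 miRNA reads of the library (RPM), and the limit that a count of 0 allows, 3 reads, was 2.47 RPM in spermatozoa and between 0.250 and 1.49 RPM elsewhere. miRNAs made up 45.2% and 40.5% of the reads of the 4 small RNA classes in primordial germ cells and spermatogonia, but only 5.57%, 4.65% and 5.38% in spermatozoa, oocyte and zygote. The labels were checked against marker miRNAs. The late spermatogenesis list, led by miR-34c-5p, summed to 231417 RPM in spermatozoa and to between 917 and 8245 RPM elsewhere. The early germ cell list of the miR-290 and miR-302 clusters summed to 25348 RPM in primordial germ cells and to between 37.8 and 8482 RPM elsewhere. Markers of other cells were present too. The gonadal soma list stood at 14981 RPM and the endothelial list at 9053 RPM in spermatogonia, the highest of the 5 libraries for each, and the smooth muscle or peritubular list stood at 233057 RPM in spermatogonia and 230750 RPM in spermatozoa, against 9260, 26560 and 20990 RPM in primordial germ cells, oocyte and zygote. Nearly all of that sum was miR-143-3p (230279 RPM in spermatozoa and 230893 RPM in spermatogonia), while miR-145a-5p stood at 459 RPM in spermatozoa and 2149 RPM in spermatogonia. In pooled cells, fewer cells of a type and less RNA per cell cannot be told apart.

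miR-16-5p, the most abundant member, stood at 2798 RPM in primordial germ cells, 3097 RPM in spermatogonia, then 14226 RPM in spermatozoa, 5302 RPM in oocytes and 7412 RPM in zygotes. It was high in spermatozoa, where it ranked 14 among all miRNAs, against ranks 46 and 49 in primordial germ cells and spermatogonia and 25 and 22 in oocyte and zygote. miR-15b-5p, the partner of miR-16 on chromosome 3, stood at 406, 214, 1970, 1210 and 957 RPM in the same order of libraries. It was again highest in spermatozoa and lowest in spermatogonia, 9.19-fold apart. miR-15a-5p, the partner of miR-16 on chromosome 14, stood at 479, 264, 1069, 374 and 315 RPM, with a narrower 4.05-fold span between spermatozoa and spermatogonia. miR-195a-5p, a member known from heart muscle for its part in cell cycle exit, stood at 86.9, 492, 833, 188 and 143 RPM. For these 4 members spermatozoa had the highest level, and the intervals of neighbouring libraries in each order, of counting error only, did not overlap. How many of all miRNAs do the same was not counted. The order depends on the scaling: per 1000000 reads of all 4 classes, miR-16-5p stood at 1264 in primordial germ cells, 1253 in spermatogonia, then 793 in spermatozoa, 247 in oocytes and 399 in zygotes.

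The erythroid markers shared the peak in spermatozoa, but not the full order, with miR-15a-5p, miR-15b-5p and miR-16-5p: their next highest level was in spermatogonia, where miR-15a-5p and miR-15b-5p were lowest. miR-195a-5p had the full order of the summed erythroid list: spermatozoa, spermatogonia, oocyte, zygote and primordial germ cells, from high to low. All 4 entries of that list had reads in spermatozoa, with a summed level of 19438 RPM, against 211 RPM in primordial germ cells, 2015 RPM in spermatogonia, 405 RPM in oocytes and 298 RPM in zygotes. miR-451a, the defining red cell miRNA, stood at 15832 RPM in spermatozoa and 141 RPM in oocytes. The epithelial list of 6 entries was also highest in spermatozoa, at 23200 RPM against 1099 to 9945 RPM elsewhere, except for its member miR-200c-3p, at 7404 RPM in spermatozoa and 8355 RPM in oocytes. The leukocyte list of 5 stood at 3095 RPM in spermatozoa against 304 to 1630 RPM elsewhere, except for miR-155-5p, at 48.5 RPM in spermatozoa against 1384 RPM in oocytes and 1554 RPM in zygotes. The neuronal list of 3 summed to 3839 RPM in primordial germ cells and 285 to 1583 RPM elsewhere, of which miR-9-5p was 3698 RPM in primordial germ cells. Its other members, miR-124-3p and miR-128-3p, were highest in spermatozoa, at 203 and 823 RPM. miR-16-5p and miR-451a stood at 14226 and 15832 RPM in spermatozoa, and at 3097 and 1294 RPM in spermatogonia. In primordial germ cells they stood at 2798 and 99.9 RPM, in oocytes at 5302 and 141 RPM, and in zygotes at 7412 and 109 RPM. The part of these cell types in the miR-15/16 levels was not tested.

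The X-linked members had a different profile. miR-322-5p stood at 1028 RPM in primordial germ cells, 2466 RPM in spermatogonia, then 121 RPM in spermatozoa (147 reads), 1336 RPM in oocytes and 1379 RPM in zygotes. Spermatogonia were highest and spermatozoa lowest, and oocyte and zygote could not be separated by their intervals. miR-503-5p stood at 141, 436, 5.75, 146 and 151 RPM in the same order, the value in spermatozoa resting on 7 reads [95% interval 2.31 to 11.9 RPM]. miR-322-3p, the minor arm, stood at 70.0, 285, 0, 115 and 190 RPM, and its 0 of 1216358 reads in spermatozoa allows up to 2.47 RPM. All 3 entries were therefore highest in spermatogonia and lowest in spermatozoa, with miR-503-5p in oocyte, zygote and primordial germ cells between 141 and 151 RPM and not separated between neighbours. Unlike the order of the 15/16 members, spermatozoa stayed lowest per 1000000 reads of all 4 classes for miR-503-5p and miR-322-3p, at 0.321 and 0 against at least 6.78 and 5.34, and for miR-322-5p, at 6.73 against at least 62.1.

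**Figure D1:**
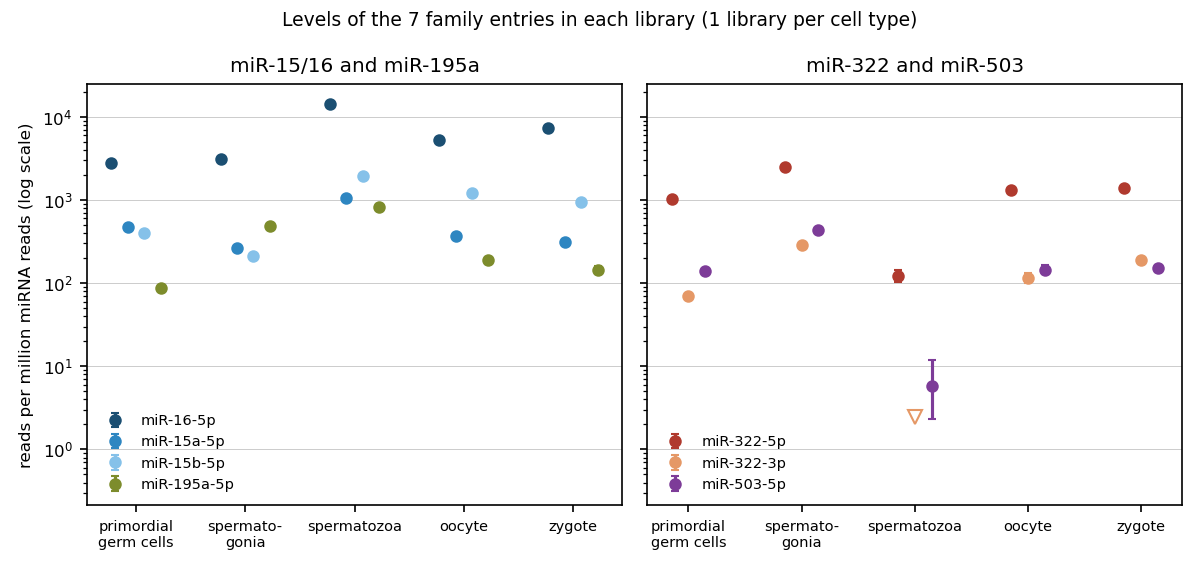
Levels of the 7 entries in each library, in RPM (reads for every 1000000 miRNA reads) on a log scale, with 1 library per cell type. Bars are exact 95% Poisson intervals (counting error only, mostly smaller than the points), and the open triangle is the limit of 2.47 RPM for miR-322-3p, which had 0 reads in spermatozoa. miR-16-5p peaks at 14226 RPM in spermatozoa, where miR-322-5p and miR-503-5p are lowest, at 121 and 5.75 RPM.

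Summed over the 7 entries, the family took 0.501% of miRNA reads in primordial germ cells, 0.725% in spermatogonia, then 1.82% in spermatozoa, 0.867% in oocytes and 1.05% in zygotes. Its make-up, which no scaling can change, differed between libraries. miR-15a-5p, miR-15b-5p and miR-16-5p together held 73.5% of the family's reads from primordial germ cells, 49.3% in spermatogonia, then 94.7% in spermatozoa, 79.4% in oocytes and 82.3% in zygotes. miR-322 and miR-503 held 24.7%, 43.9%, 0.695%, 18.4% and 16.3%. Spermatogonia therefore had nearly balanced groups and spermatozoa almost none of the X-linked one, and no 2 exact Clopper-Pearson intervals overlapped (43.6% to 44.3% in spermatogonia and 0.590% to 0.813% in spermatozoa for miR-322 and miR-503). miR-195a-5p held 6.79% in spermatogonia and 4.57% in spermatozoa, and 1.36% to 2.17% in the other 3 libraries. For each read of miR-322-5p there were 118 reads of miR-16-5p in spermatozoa [100.1 to 139], against 1.26 in spermatogonia, 2.72 in primordial germ cells, 3.97 in oocytes and 5.37 in zygotes.

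**Figure D2:**
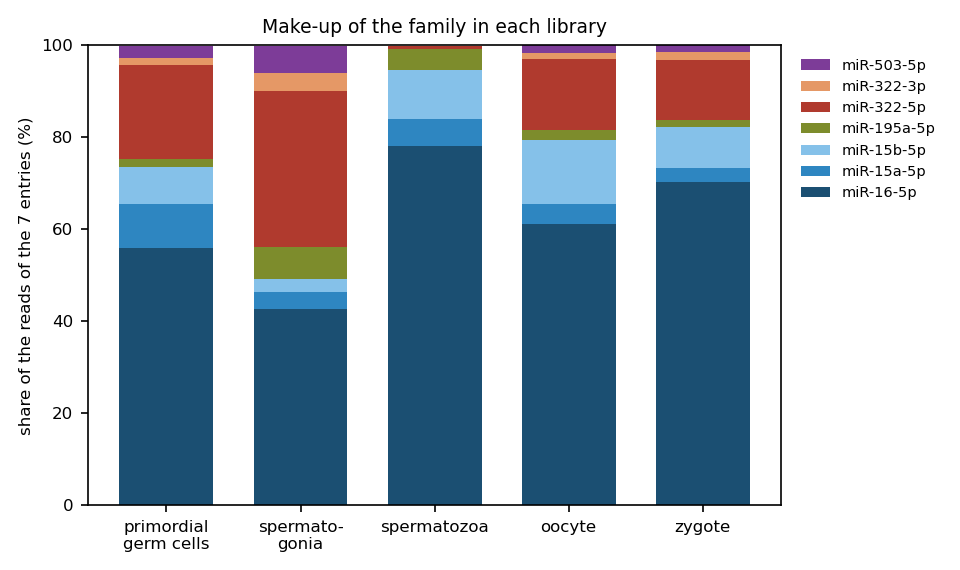
Share of each of the 7 entries in the family's reads, in percent, for each library (bars start at 0 and sum to 100). miR-322 and miR-503 (red, orange and purple) take 43.9% in spermatogonia and 0.695% in spermatozoa, where miR-16-5p (dark blue) takes 78.1%.

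miR-16-5p is the same molecule from chromosomes 3 and 14, so its reads cannot be assigned to a locus, but its 3p arms and the miR-15 partners can. The 3p arm from chromosome 14, miR-16-1-3p, had 1383, 534, 20, 24 and 58 reads in primordial germ cells, spermatogonia, spermatozoa, oocyte and zygote. The arm from chromosome 3, miR-16-2-3p, had 86, 98, 103, 154 and 215 reads. The chromosome 14 arm was thus 94.1% of the pair in primordial germ cells [92.8% to 95.3%] and 84.5% in spermatogonia [81.4% to 87.2%], and 16.3% in spermatozoa [10.2% to 24.0%], 13.5% in oocytes [8.83% to 19.4%] and 21.2% in zygotes [16.5% to 26.6%]. The majority arm was that of chromosome 14 in the immature male germ cells and that of chromosome 3 in spermatozoa, oocyte and zygote. The 5p partners split the libraries the same way but less widely. miR-15a-5p was 54.1% of miR-15a-5p and miR-15b-5p together in primordial germ cells, 55.2% in spermatogonia, then 35.2% in spermatozoa, 23.6% in oocytes and 24.8% in zygotes. Among the 3p arms of the miR-15 hairpins, by contrast, that of chromosome 3 was the majority in all 5 libraries: miR-15a-3p had 21, 35, 0, 0 and 2 reads beside 1099, 1358, 97, 286 and 293 reads of miR-15b-3p, so that it was at most 2.51% of the pair in any library. These shares compare entries within a library and are independent of scaling, but the 3p arms are rare, with 20 and 103 reads of the miR-16 arms in spermatozoa.

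**Figure D3:**
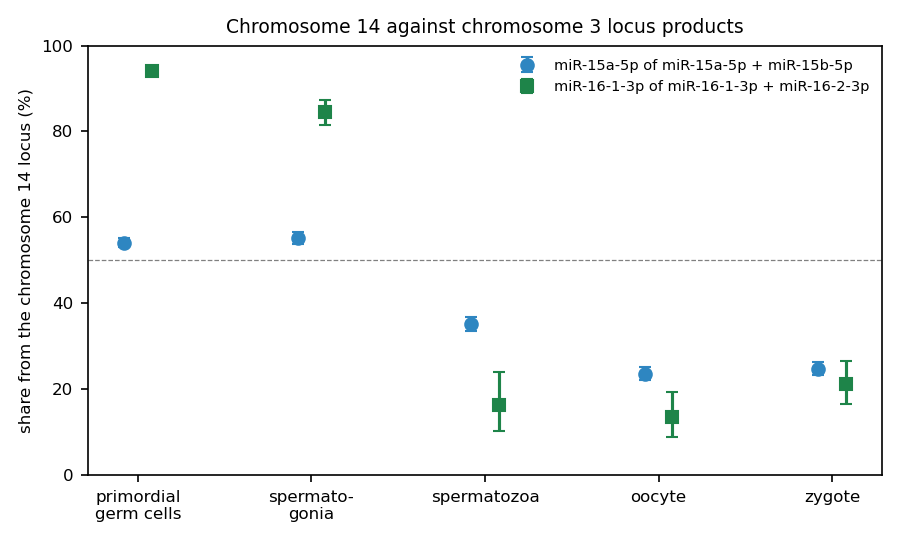
Share of the product of the chromosome 14 locus, in percent, in each library, for the 5p arms of miR-15 (circles) and the 3p arms of miR-16 (squares). Bars are exact 95% binomial intervals and the dashed line marks 50%. Both shares lie above the line in primordial germ cells and spermatogonia and below it in spermatozoa, oocyte and zygote, the squares between 84.5% and 94.1% and then between 13.5% and 21.2%.

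The ratio of the arms of 1 hairpin also differed between libraries. miR-15b had 4.44 reads of the 5p arm for each of the 3p arm in primordial germ cells, 1.68 in spermatogonia, then 24.7 in spermatozoa, 8.50 in oocytes and 7.60 in zygotes. miR-322 had 14.7, 8.64, 11.6 and 7.28 in primordial germ cells, spermatogonia, oocyte and zygote, and in spermatozoa 147 reads of the 5p arm with 0 of the 3p arm. In the zygote the miR-322 ratio of 7.28 [6.59 to 8.06] lay below the 11.6 [10.2 to 13.4] of the oocyte, with miR-322-3p 1.65-fold and miR-322-5p 1.03-fold higher in zygotes. miR-503 had 5.80, 3.90, 1.75, 4.58 and 6.88 reads of miR-503-5p for each of miR-503-3p, the value in spermatozoa resting on 7 and 4 reads. miR-195a-5p outnumbered its own 3p arm 19.7-fold in primordial germ cells and 39.8-fold in spermatogonia, and miR-195a-3p had 0, 8 and 2 reads in spermatozoa, oocyte and zygote. The spermatogonia had the lowest miR-15b ratio, and both miR-15b arms had whole reads in all 5 libraries. The miRNA table of the spermatogonia holds whole reads alone. The other tables split some reads into fractions, in 13.1% to 17.7% of their entries with reads. Of the arms named here, miR-195a-5p alone had fractional reads, in spermatozoa, oocyte and zygote, and the part of this was not tested.

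Zygote and oocyte lie on either side of fertilisation, which the study's title names. An entry was counted where it had at least 100 reads over the pair and the levels were at least 4-fold apart. None of the 7 members met this in either direction, while of the 299 miRNAs measured 2.01% were higher and 1.34% lower in zygotes by that rule. miR-322-3p differed most, at 190 RPM in zygotes and 115 RPM in oocytes [1.40-fold to 1.94-fold]. miR-16-5p was 1.40-fold higher in zygotes [1.36 to 1.43]. miR-15a-5p, miR-15b-5p and miR-195a-5p were 1.19-fold, 1.26-fold and 1.31-fold lower, a direction that turned when the deposited factor was used (the ratio of the authors' normalised column to their reads, 1 value per library). For miR-322-5p and miR-503-5p the intervals of the ratio, 0.980 to 1.09 and 0.884 to 1.21, included equality. The median log2 ratio of the members was 0.05, beside -0.01 over all measured miRNAs.

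Zygotes were also set against spermatozoa, although the spermatozoa were of CD-1 males and the zygotes were sired by DBA/6J males. Of the 7 members, 3 stood 4-fold or more above spermatozoa in zygotes and 1 stood 4-fold or more below, beside 26.3% above and 25.6% below of 308 miRNAs. The 3 higher ones were those of the X chromosome. miR-322-5p had 1379 RPM in zygotes and 121 RPM in spermatozoa, an 11.4-fold difference [9.67 to 13.6]. miR-503-5p was 26.2-fold higher in zygotes [12.6 to 65.7], and miR-322-3p at least 76.8-fold higher, taking 3 reads as the level in spermatozoa. miR-195a-5p was 5.81-fold lower in zygotes [5.14 to 6.61], which fell below 4-fold with TMM factors (edgeR's scaling by the bulk of the entries) and the deposited factor. miR-15a-5p, miR-15b-5p and miR-16-5p were lower in zygotes by 3.39-fold, 2.06-fold and 1.92-fold, differences that shrank with the deposited factor to log2 ratios of -0.81, -0.09 and 0.01 and with TMM factors to -1.11, -0.39 and -0.29. The members' median log2 ratio was -0.94, beside 0.13 over all measured miRNAs.

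Spermatozoa were set against the oocyte as the other gamete. Here 1 member was at least 4-fold higher in spermatozoa and 3 at least 4-fold lower, beside 26.7% and 26.3% of 300 miRNAs. miR-195a-5p had 833 RPM in spermatozoa and 188 RPM in oocytes, a 4.42-fold difference [3.93 to 5.00], whose log2 ratio of 2.14 was between 1.57 and 1.98 under 4 other scalings and so fell short of 4-fold. miR-322-5p was 11.1-fold lower in spermatozoa [9.36 to 13.1], miR-503-5p 25.3-fold lower [12.1 to 63.5], and miR-322-3p at least 46.6-fold lower. miR-15a-5p, miR-16-5p and miR-15b-5p were 2.86-fold, 2.68-fold and 1.63-fold higher. The members' median log2 ratio was 0.70, beside -0.09 over all measured miRNAs. The 3 comparisons above share libraries, so they are not independent of each other.

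Spermatogonia followed primordial germ cells in the male line. Of the 7 members, 2 were at least 4-fold higher in spermatogonia and 0 at least 4-fold lower, beside 25.7% and 12.6% of 530 miRNAs. miR-195a-5p had 492 RPM in spermatogonia and 86.9 RPM in primordial germ cells, a 5.67-fold difference [5.30 to 6.06], and miR-322-3p was 4.08-fold higher [3.78 to 4.41]. miR-195a-5p was under 4-fold with TMM, DESeq2 or the deposited factors, and miR-322-3p under each of the 5 other scalings, at log2 ratios of 1.31 to 1.87. miR-503-5p and miR-322-5p were 3.10-fold and 2.40-fold higher. miR-15a-5p and miR-15b-5p were 1.82-fold and 1.90-fold lower in spermatogonia, and miR-16-5p was 1.11-fold higher, with a direction that turned under 5 other scalings. The 3 entries of the X chromosome together were 2.57-fold higher in spermatogonia and miR-15a-5p, miR-15b-5p and miR-16-5p together 1.03-fold lower, before shifts of -0.64, -0.61 and -0.71 in each log2 ratio with TMM, DESeq2 and the deposited factors. The endothelial list was also higher in spermatogonia, at 9053 RPM against 1051 RPM in primordial germ cells, as were the gonadal soma list, at 14981 against 1734 RPM, the smooth muscle or peritubular list, at 233057 against 9260 RPM, and the erythroid list, at 2015 against 211 RPM. Their part in the higher members was not tested.

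Spermatozoa and spermatogonia, the ends of the postnatal male line sampled here, gave 6 members at least 4-fold apart, 3 in each direction, beside 14.9% higher and 37.2% lower in spermatozoa among 471 miRNAs. The 3 lower ones were the X-linked members. The spermatozoa library is the one set against zygote and oocyte, and the spermatogonia library the one set against primordial germ cells. This comparison is therefore not independent of those. miR-322-5p had 121 RPM in spermatozoa and 2466 RPM in spermatogonia, 20.4-fold lower [17.4 to 24.2]. miR-503-5p was 75.7-fold lower [36.7 to 188] and miR-322-3p at least 116-fold lower, taking 3 reads as its level in spermatozoa. miR-15b-5p, miR-16-5p and miR-15a-5p were 9.19-fold, 4.59-fold and 4.05-fold higher in spermatozoa in RPM, and miR-195a-5p 1.69-fold higher. The direction of all but miR-15b-5p rests on the scale. Per 1000000 reads of all 4 classes, in which miRNAs are a small share of the sperm library, the log2 ratios were 0.34 for miR-15b-5p, -0.66 for miR-16-5p, -0.84 for miR-15a-5p and -2.10 for miR-195a-5p. With the deposited factor they were 1.07, 0.07, -0.11 and -1.37. The erythroid list stood at 19438 RPM in spermatozoa and 2015 RPM in spermatogonia, and its part in these ratios was not tested. The X-linked members stayed at least 4-fold lower in spermatozoa under each of the scalings tried. The members' median log2 ratio was 0.76, beside -1.10 over all measured miRNAs.

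**Figure D4:**
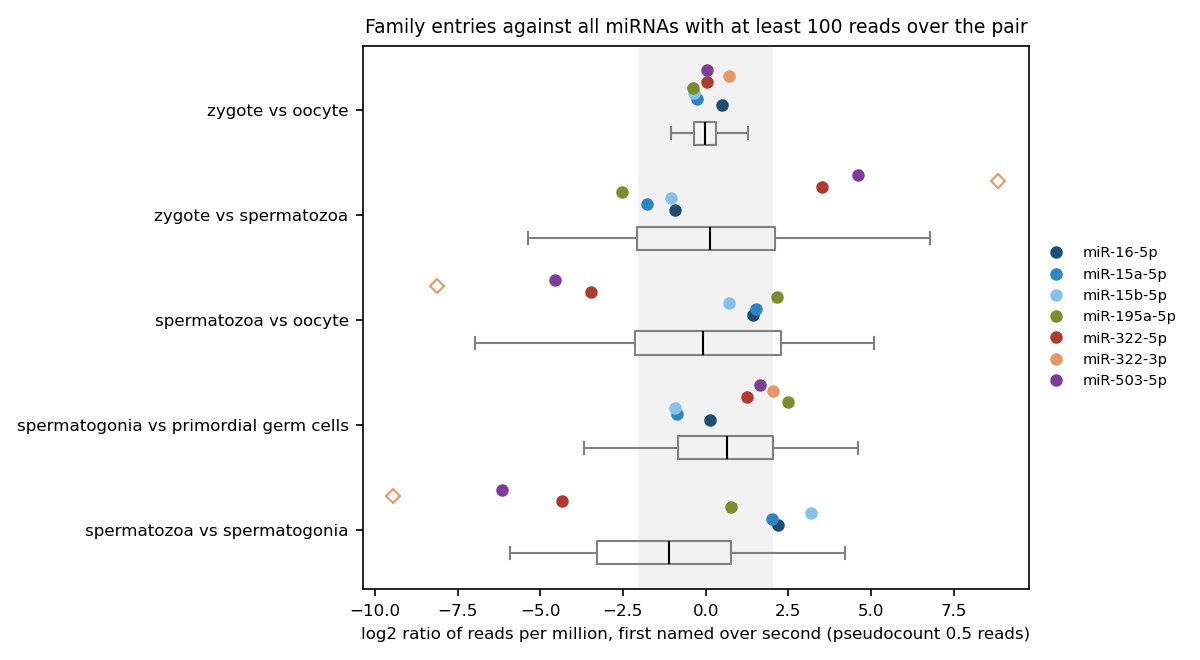
Log2 ratio of RPM, first named library over the second, with a pseudocount of 0.5 reads, for the 7 entries (points) and for all miRNAs with at least 100 reads over the pair (boxes, quartiles with the median, and whiskers at percentiles 5 and 95). Open diamonds are ratios with 0 reads in spermatozoa, which depend on the pseudocount, and the grey band is less than 4-fold. miR-322-5p, miR-503-5p and miR-322-3p are separated from the other 4 entries in each comparison with spermatozoa, and all 7 lie in the band for zygote and oocyte.

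The neighbours downstream of miR-322 and miR-503 on the X chromosome were measured as 9 entries of miR-351, miR-542 and miR-450. They summed to 1372 RPM in primordial germ cells, 1197 RPM in spermatogonia, then 45.2 RPM in spermatozoa, 721 RPM in oocytes and 499 RPM in zygotes. Of the 7 with at least 100 reads over spermatozoa and spermatogonia, 7 were at least 4-fold lower in spermatozoa, beside 37.2% of all 471 miRNAs measured there. All 7 reached that minimum through the deeper spermatogonia library, with at most 28 reads in spermatozoa. The minimum therefore favoured entries high in spermatogonia. Several are arms of the same hairpin, so they are not independent entries. Over zygote and oocyte, none of 3 measured was at least 4-fold apart, beside 2.01% higher and 1.34% lower over all miRNAs, and the 3 were 1.44-fold to 1.84-fold lower in zygotes, where miR-322-5p and miR-503-5p were level within counting error. The deposited factor would add 0.75 to each of these log2 ratios and turn those of miR-542-3p and miR-450a-5p. Between spermatogonia and primordial germ cells the cluster did not move as a block. miR-351-5p was 6.92-fold higher in spermatogonia, while miR-542-3p was 2.48-fold lower and miR-450b-5p 3.81-fold lower. There were 1.05 reads of miR-542-3p for each of miR-322-5p in primordial germ cells, 0.177 in spermatogonia, then 0.190 in spermatozoa, 0.451 in oocytes and 0.303 in zygotes. The opposite arms of the same hairpins differed in the other direction, with miR-542-5p 3.22-fold and miR-450b-3p 7.20-fold higher in spermatogonia. miR-450b thus had 228 reads of the 5p and 243 of the 3p arm in spermatogonia, against 978 and 38 in primordial germ cells. In the spermatogonia table miR-351-5p and miR-195a-5p hold exactly the same number, 5248 reads, and the reason was not tested.

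**Figure D5:**
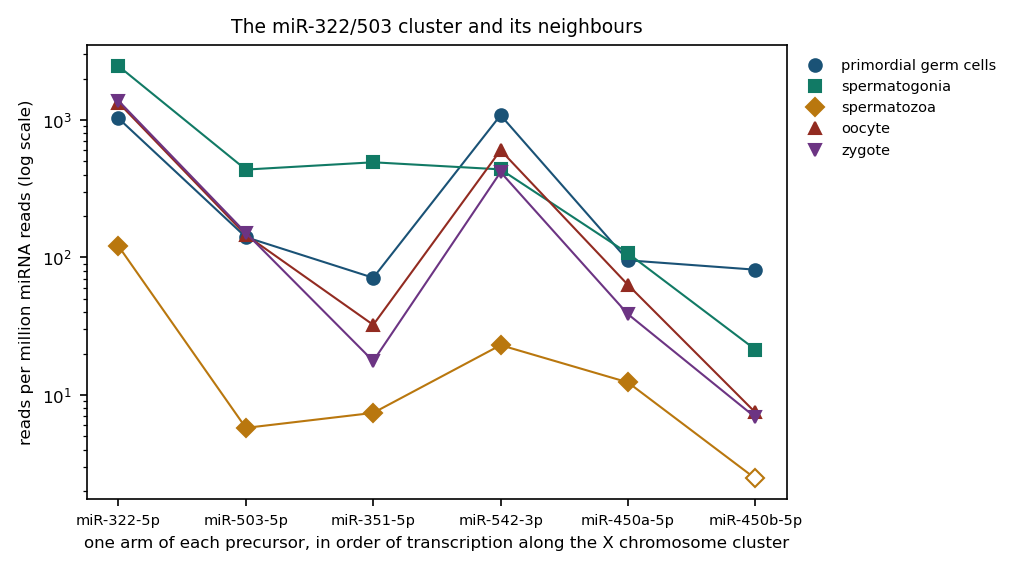
Levels of 1 arm of each precursor of the X-linked cluster, in order of transcription, in RPM on a log scale, with 1 line per library. The open symbol is the limit of 2.47 RPM for miR-450b-5p, which had 0 reads in spermatozoa. Spermatozoa lie lowest at each entry, and the primordial germ cell value at miR-542-3p is 1084 RPM, above the 437 RPM of spermatogonia.

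RefSeq holds 10 mature names with the miR-16 seed, of which 8 are in the tables and 3 of those are not among the 7 entries. miR-497-5p, the cluster partner of miR-195a (miR-497a-5p in RefSeq), stood at 25.2, 41.5, 56.7, 29.3 and 25.4 RPM in primordial germ cells, spermatogonia, spermatozoa, oocyte and zygote. miR-195a-5p outnumbered it 3.45-fold in primordial germ cells, 11.9-fold in spermatogonia, then 14.7-fold in spermatozoa, 6.41-fold in oocytes and 5.65-fold in zygotes, so the pair did not keep a fixed ratio. miR-6342 and miR-6419 had at most 2 and 4 reads in any library. The 11 further arms and family entries summed to between 241 and 358 RPM in each library. At least 4-fold apart among them were 0 of 4 measured for zygote and oocyte, beside 2.01% of all miRNAs higher and 1.34% lower. There were 0 of 3 for zygote and spermatozoa, beside 26.3% and 25.6%, and 0 of 3 for spermatozoa and oocyte, beside 26.7% and 26.3%. Spermatogonia and primordial germ cells gave 1 of 6, miR-503-3p, 4.61-fold higher in spermatogonia, beside 25.7% higher and 12.6% lower. Spermatozoa and spermatogonia gave 1 higher and 2 lower of 6, beside 14.9% and 37.2%. miR-16-2-3p was 9.21-fold higher in spermatozoa [6.92 to 12.3], beside 9.19-fold for its cluster partner miR-15b-5p. The 3p arm of that partner, miR-15b-3p, differed in the other direction and was 1.60-fold lower in spermatozoa [1.30 to 1.98]. miR-503-3p was 34.0-fold lower, and miR-195a-3p had 0 reads in spermatozoa and 132 in spermatogonia. miR-16-1-3p was 3.05-fold lower in spermatozoa [1.95 to 5.03], against 4.05-fold higher for its partner miR-15a-5p. These folds are in RPM. Each log2 ratio of this comparison shifts by -2.86 with the reads of all 4 classes and by -2.13 with the deposited factor. Under both, the log2 ratio of miR-16-2-3p, 3.20 in RPM, falls below that of 4-fold.

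The miRNAs most alike in profile were found as those with the smallest root mean square difference of centred log2 levels over the 5 libraries, among 575 entries with at least 100 reads in all. To miR-16-5p these were miR-128-3p at 0.35, miR-192-5p at 0.41 and miR-26b-5p at 0.47. miR-128-3p, at 823 RPM in spermatozoa and 123 RPM in primordial germ cells, is also one of the 3 neuronal markers. miR-15b-5p differed from miR-16-5p by 0.55, with 6 entries outside the family closer, and miR-15a-5p by 0.65. miR-322-5p, which has the same seed, differed from miR-16-5p by 2.24, with 417 entries closer. To miR-322-5p the most alike were miR-382-5p at 0.28, miR-485-5p at 0.38 and miR-494-3p at 0.41, all known from the imprinted Dlk1-Dio3 miRNA cluster. To miR-503-5p they were miR-382-5p at 0.32, miR-409-3p at 0.46 and miR-744-5p at 0.53, and miR-322-5p itself differed by 0.56. miR-382-5p stood at 52.8, 149, 3.29, 52.7 and 56.3 RPM in primordial germ cells, spermatogonia, spermatozoa, oocyte and zygote. In spermatozoa, miR-485-5p and miR-494-3p stood at 3.29 and 4.93 RPM and miR-409-3p at 0 RPM, beside the limit of 2.47 RPM. miR-322-3p, with 0 reads in spermatozoa, differed from miR-322-5p by 1.48, with 160 entries outside the family and its neighbours closer. These are distances over 5 libraries and describe likeness of level alone.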

How the data were processed

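Reads of 18 to 32 nucleotides from 5 small RNA libraries were counted by the authors. Bowtie 0.12.7, DESeq and mm10 are named in the submitters' processing notes, without their roles; the annotation, the mismatch setting and the handling of multi-mapping reads were not given in the sources used here. The deposited miRNA tables give estimated counts of reads per entry, with fractions of a read in 4 of the 5 libraries, and a normalised signal that equals the deposited reads times 1 factor per library (0.978, 0.672, 1.35, 0.937 and 1.37 in primordial germ cells, spermatogonia, spermatozoa, oocyte and zygote). miR-16-5p and miR-195a-5p have fractional reads in spermatozoa, oocyte and zygote. 

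Reads were scaled to 1000000 miRNA reads, and ratios used a pseudocount of 0.5 reads. With 1 library per cell type no test was run, and an entry was counted when at least 4-fold apart with at least 100 reads over the pair. Intervals at 95% are exact Poisson, Clopper-Pearson or conditional ratio intervals (scipy 1.17.1, Python 3.11.15). The ratio intervals alone were checked, on simulated Poisson counts without PCR copies or fractional reads, so the check covers counting error only. Alternatives used TMM factors (edgeR 4.0.16) and size factors (DESeq2 1.42.0), both on rounded reads in R 4.3.3, the reads of all 4 classes, totals without the 5 most abundant entries, the deposited factor, a minimum of 20 or 1 in place of 100 reads, and a pseudocount of 5. Named were all members, the further arms and the X-linked neighbours, the 3 miRNAs most alike to each of miR-16-5p, miR-322-5p and miR-503-5p, and the marker lists. The members and lists were chosen with earlier results of these data known. Entries of the snoRNA tables without a name, 0.551% to 4.59% of those reads, were left out of the totals, and 0 sample columns were left unused.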

Additional observations from a re-analysis of the deposited data

How the results depend on the processing

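A change of scaling moves all log2 ratios of a comparison alike, so the make-up of the family, the arm ratios and the shares of the loci do not depend on it. The summed family did. In zygote against oocyte its log2 ratio of 0.28 was 0.49 per reads of all 4 classes, 0.37 with edgeR's TMM factors, 0.32 with DESeq2's, 0.23 without the 5 most abundant entries and 1.04 with the deposited factor. In zygote against spermatozoa, -0.79 was -0.84, -0.13, -0.59, -0.56 and 0.17 in that order. In spermatozoa against oocyte, 1.07 was 1.33, 0.50, 0.91, 0.79 and 0.87. In spermatogonia against primordial germ cells, 0.53 was 0.37, -0.11, -0.077, 0.29 and -0.18. In spermatozoa against spermatogonia, 1.33 was -1.53, 1.43, 1.90, 1.69 and -0.80. The shift of each log2 ratio was -2.86 with all 4 classes and -2.13 with the deposited factor in this last comparison.

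The 2 members at least 4-fold apart in spermatogonia against primordial germ cells were 1, 0, 0, 1 and 0 in the same order of scalings. In spermatozoa against spermatogonia the 6 members were 3 with the deposited factor, all 3 lower, and 4 with all 4 classes, all 4 lower. The log2 ratios of miR-15a-5p and miR-16-5p in that comparison turned to -0.84 and -0.66 with all 4 classes, and that of miR-15a-5p to -0.11 with the deposited factor. That of miR-195a-5p, 0.76, turned to -2.10 and -1.37 under these 2 scalings. Of the 35 ratios of a member in a comparison, 34 kept their direction with TMM and with DESeq2's factors, 32 without the 5 most abundant entries, 31 with all 4 classes and 28 with the deposited factor, and 35 with other minimums of reads or a pseudocount of 5.

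No paired analysis was possible because each cell type has 1 library. Depth limits the X-linked entries in spermatozoa, where miR-503-5p rests on 7 reads and miR-322-3p on 0, and the 3p arms of miR-16.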
